A study of Mus musculus with 2 samples.

Results

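Chromosome 15 of MEL cells carried 2367 of the 38300 replicated H3K27me3 peaks of the series (6.18% of the peaks, on 3.82% of the genome's length). These peaks are the rows of the authors' replicated list that name chromosome 15, and no measured value was used to choose them. They gathered in a few stretches. Apart from the region set aside around the HoxC homeobox cluster, whose longest stretch of joined peaks was chr15:102777426-102863298, the most covered stretches lay between 97 and 100 Mb, which holds the vitamin D receptor gene Vdr, odorant receptor genes and genes of kidney water channels, and in the megabase from 36 Mb. The gene with the most covered bases near its start, Rarg of the retinoic acid receptors, lay apart from both, in the megabase from 102 Mb.

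Trimethylation of lysine 27 of histone H3 (H3K27me3) is placed by Polycomb repressive complex PRC2 and read by the CBX proteins of PRC1. It is found over genes that a cell type keeps silent, classically transcription factor and signalling genes of other lineages, and PRC2 in mammals is best known from CpG-rich promoters of such genes. It can also spread over broad stretches between genes, and it is seldom found at the starts of active genes. MEL is a mouse erythroleukaemia line whose cells are arrested early in red cell development.

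The series mapped this mark by chromatin immunoprecipitation and sequencing in untreated MEL cells as 2 biological replicates, which form 1 group with no second condition, genotype or time point. Besides a peak list for either replicate, the authors gave a pooled list called on the joint data and a replicated list drawn from it. Both replicates used the same control alignment. With 1 group no test between conditions is possible, so values are given for the replicated list and for both replicates' own lists, and values for the genome are set beside those of the chromosome as a description. Positions are on mm10 (GRCm38) and genes are those of GENCODE mouse release 21. The lists carry no read counts, so the depth of each replicate is unknown, and bases between peaks may still carry the mark.

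The sequences under the 3 strongest peaks held at most 3 CpG, the dinucleotide in which PRC2 target promoters are usually rich. The 201 bases centred on the summit of the 3 peaks with the highest −log10 q outside the HoxC region are shown first, on the forward strand, with each CpG in capitals. The strongest peak had a −log10 q of 6.29 (13.6 in replicate 1 and 4.56 in replicate 2) and lay between the cartilage collagen gene Col2a1 and the SUMO protease gene Senp1, at chr15:98027205-98027405, outside any gene. The next lay in an intron of Rapgef3, at chr15:97763888-97764088, with a −log10 q of 6.05 (4.76 in replicate 1 and 7.83 in replicate 2). The last lay upstream of Vdr, outside any gene, at chr15:97913769-97913969, with a −log10 q of 6.04 (7.57 in replicate 1 and 8.48 in replicate 2).
Col2a1 to Senp1 peak: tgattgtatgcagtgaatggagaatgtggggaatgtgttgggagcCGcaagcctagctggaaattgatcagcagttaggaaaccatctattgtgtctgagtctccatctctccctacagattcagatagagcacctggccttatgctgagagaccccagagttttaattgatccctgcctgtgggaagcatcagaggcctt
Rapgef3 intron peak: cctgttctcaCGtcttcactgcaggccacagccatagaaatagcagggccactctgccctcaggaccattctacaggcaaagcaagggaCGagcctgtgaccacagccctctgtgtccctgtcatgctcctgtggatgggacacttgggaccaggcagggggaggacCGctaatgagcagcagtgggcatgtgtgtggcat
Vdr upstream peak: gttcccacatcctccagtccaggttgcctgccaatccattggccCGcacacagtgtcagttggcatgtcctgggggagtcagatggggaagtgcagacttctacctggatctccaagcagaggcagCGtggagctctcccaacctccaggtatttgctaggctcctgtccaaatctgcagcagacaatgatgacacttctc
They hold 1, 3 and 2 CpG, and 70.5%, 23.4% and 41.9% of the 201-base windows of chromosome 15 hold at least as many. The median window of the chromosome holds 1, so these sequences were not poorer in CpG than the chromosome at large.

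A peak at the start of Vdr is shown beside the annotated promoters of Vdr, Rarg and Dhh. Rarg encodes retinoic acid receptor gamma and Vdr the vitamin D receptor, both nuclear receptors that switch genes on when they bind their ligand. The peak nearest the outermost Vdr start crossed that start, with its summit bases just upstream at chr15:97910817-97911017. They are given on the forward strand. The 250 bases before the RefSeq start (GRCm38.p6) of Rarg, Vdr and Dhh, the desert hedgehog ligand, are given on the reverse strand, on which these genes are read.
Rarg promoter, chr15:102257523-102257772: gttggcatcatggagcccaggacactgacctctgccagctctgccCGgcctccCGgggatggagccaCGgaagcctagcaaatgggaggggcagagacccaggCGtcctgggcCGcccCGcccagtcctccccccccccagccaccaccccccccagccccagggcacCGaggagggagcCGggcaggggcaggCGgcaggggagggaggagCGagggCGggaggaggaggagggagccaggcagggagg
Vdr peak: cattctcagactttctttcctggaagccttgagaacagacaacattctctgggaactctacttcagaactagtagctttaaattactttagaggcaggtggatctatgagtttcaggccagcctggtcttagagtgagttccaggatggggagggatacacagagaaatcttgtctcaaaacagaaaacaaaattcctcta
Vdr promoter, chr15:97908297-97908546: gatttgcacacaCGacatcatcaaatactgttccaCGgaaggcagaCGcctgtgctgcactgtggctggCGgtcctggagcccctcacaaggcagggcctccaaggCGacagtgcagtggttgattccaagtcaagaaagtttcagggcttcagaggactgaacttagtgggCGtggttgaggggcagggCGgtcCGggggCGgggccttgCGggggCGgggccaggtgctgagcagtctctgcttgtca
Dhh promoter, chr15:98898541-98898790: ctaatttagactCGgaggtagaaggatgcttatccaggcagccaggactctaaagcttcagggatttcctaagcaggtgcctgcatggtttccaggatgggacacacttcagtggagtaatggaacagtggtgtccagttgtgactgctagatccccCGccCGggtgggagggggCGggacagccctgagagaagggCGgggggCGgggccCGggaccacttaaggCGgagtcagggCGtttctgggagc
The bases at the Vdr peak hold 0 CpG, as do 29.5% of the 201-base windows of the chromosome. Repeat-masked sequence makes up 56.2% of these bases. The promoters hold 11 in Rarg, 11 in Vdr and 9 in Dhh, and at least 11 are found in 37.0% and at least 9 in 40.6% of the 922 RefSeq promoters of the chromosome outside the HoxC region. Replicated peaks covered 115 of the 250 promoter bases of Rarg and 0 of those of Vdr and Dhh. RefSeq gives Rarg a further promoter inside the gene, chr15:102246501-102246750, with 10 CpG and 0 covered bases in the replicated list and in both replicates. In the replicates' own lists the promoters shown had 80 (replicate 1) and 115 (replicate 2) covered bases in Rarg, 0 and 96 in Vdr, and 23 and 0 in Dhh. RefSeq places this Vdr start inside the gene as GENCODE draws it, and the middle of the promoter lies 2208 bp downstream of the outermost start. Over all 922 RefSeq promoters (300 bases each, 50 of them after the start), 14 were overlapped by a replicated peak (1.52%), against 1.03% of such promoters in the genome.

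The replicated peaks covered 875 kb or 0.841% of the chromosome, against 0.477% of the genome, the third highest share among 21 chromosomes. Their median width was 284 bp (quartiles 207 and 424, range 150 to 3973), against 278 bp in the genome. Replicate 1 held 4182 peaks over 1.03 Mb of the chromosome (0.993%) and replicate 2 held 6132 over 1.48 Mb (1.42%). Replicate 2 thus covered more of the chromosome than replicate 1. A −log10 q of 2 was reached by 369 peaks (15.6%), against 10.9% in the genome. The HoxC region held 184 of the peaks and 11.2% of the covered bases, and the sections on genes leave it out.

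The peaks were unevenly spread. Of 101 bins of 1 Mb that hold sequence, the 10 most covered held 62.6% of the covered bases, and the top 4 alone held 43.3%. The bins at 102, 99, 98 and 36 Mb led, with 137, 81.5, 81.1 and 79.4 kb. The same 4 bins held 125, 84.4, 84.3 and 84.8 kb in replicate 1 and 145, 105, 94.8 and 94.6 kb in replicate 2, so that all 3 lists put them ahead of every other bin. Most of the cover of the bin at 102 Mb came from the HoxC region, which held 97986 covered bases. Without that region the top 10 bins held 57.9% of the covered bases left. The fifth bin, at 58 Mb, had 46.6 kb (58.6 kb in replicate 1 and 64.3 kb in replicate 2). The top 10 bins held 56.3% of the covered bases of replicate 1 and 48.9% of those of replicate 2 when each was ranked on its own, and 9 of the 10 were shared with either replicate.

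**Figure D1:**
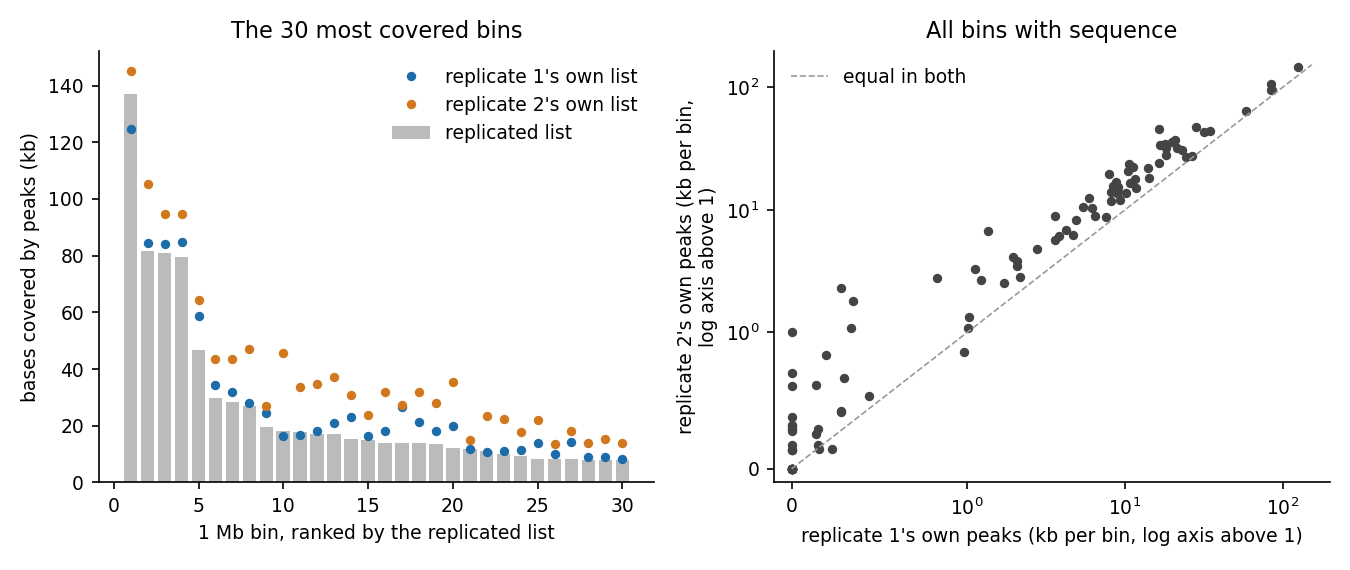
Left, bases covered by peaks (kb) in the 30 most covered 1 Mb bins of chromosome 15, ranked by the replicated list (bars), with each replicate's own list as points. Right, the same measure in replicate 1 (x axis) against replicate 2 (y axis) for the 101 bins with sequence, both axes logarithmic above 1 kb. Most points lie above the dashed line of equality, and the first 4 bins stand apart in all 3 lists. The bin ranked first holds most of the HoxC region.

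At the other end, 38 bins with sequence had no replicated peak (25 had none in replicate 1 and 13 none in replicate 2), and the median bin had 954 covered bases. Over the 101 bins, covered bases in the replicates had Pearson's r = 0.982 and Spearman's rho = 0.973, and r = 0.957 and rho = 0.968 over the 96 bins left without the 5 most covered. Both replicates share the control, the mappable sequence and its base composition, so these are descriptions with no p-value. Covered bases in the replicated list had rho = 0.694 with the number of gene starts in a bin (r = 0.515) and rho = 0.581 with its GC content (r = 0.328). Bins with more gene starts thus tended to have more covered bases.

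The longest stretch without a replicated peak ran over 14.47 Mb, chr15:13163803-27637579, and holds 14 gene starts. It takes in most of a run of cadherin genes, which encode adhesion proteins of neurons. Of the 6 cadherin and delta catenin genes of the chromosome 0 had a covered base within 5 kb of the start. Over all 774 genes outside the HoxC region 118 had such a base, a share under which lists of this size hold few such genes or none. The replicates' own lists had 19 (replicate 1) and 59 (replicate 2) peaks in that stretch, and the pooled list had 7. The next longest stretches measured 6.004, 4.179 and 3.935 Mb. The median distance between neighbouring peaks was 970 bp, and 67.1% of these distances were at most 3 kb.

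Peaks no more than 3 kb apart were joined into 779 domains. A lone peak made up 386 of them (49.6%, against 51.7% in the genome), but the 130 domains of at least 5 peaks held 54.3% of the peaks and 61.6% of the covered bases. Of the genome's 504 domains of 10 kb or more, 32 lay on the chromosome, which held 6.18% of the peaks. Outside the HoxC region 30 domains reached 10 kb. Of these, 14 lay between 97 and 100 Mb, 6 in the bin at 36 Mb and 2 in the bin at 102 Mb. A protein-coding gene was overlapped by 20 of the 30, a gene start was held by 9, and 10 lay between protein-coding genes.

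The longest of these domains was 33331 bp of intergenic sequence, chr15:36287536-36320866, which began 4388 bp upstream of Rnf19a, a ubiquitin ligase gene. Replicated peaks covered 35.7% of it, those of replicate 1 42.1% and those of replicate 2 33.2%. A similar intergenic domain of 27988 bp, chr15:36402581-36430568, lay further on in the same interval before Ankrd46, with 44.1% covered (49.7% and 44.6% in replicates 1 and 2). The whole 195 kb between Rnf19a and Ankrd46 holds no protein-coding gene start and was covered to 18.2% (21.3% in replicate 1 and 19.4% in replicate 2), against 0.841% of the chromosome. On the other side of Rnf19a, 3 domains of 21.1, 11.9 and 11.1 kb lay in the body of Rgs22, a regulator of G protein signalling known from testis. Replicated peaks covered 21.5% of Rgs22 (19.4% in replicate 1 and 24.6% in replicate 2) and 23.8% of its neighbour Fbxo43, an inhibitor of the anaphase-promoting complex in meiosis.

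The densest of the long domains that hold a gene start was at Fmnl3, a formin that builds actin filaments. It measured 32799 bp, chr15:99344307-99377105, with 62.5% of its bases under replicated peaks, 55.8% under those of replicate 1 and 61.6% under those of replicate 2. The Rarg domain measured 29791 bp, chr15:102244287-102274077, and took in the predicted gene Gm9918 upstream. Replicated peaks covered 55.7% of it, those of replicate 1 52.2% and those of replicate 2 49.9%. In both domains the lists thus lay within a few percentage points of each other.

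Further long domains lay at the end of, inside or beside genes. A domain of 31958 bp, chr15:102029911-102061868, began inside Krt18, a keratin of simple epithelia, and ran on between Krt18 and the translation factor gene Eif4b; it was covered to 39.8% (33.4% and 41.9% in replicates 1 and 2). Rims2, a scaffold of synaptic vesicle release, held 2 domains of 23.1 and 19.5 kb in its introns while its start had no peak within 1 kb in any list. Lima1, which binds actin filaments, held a domain of 18.2 kb. A domain of 17.3 kb lay within the locus of Anxa13, an annexin of gut epithelium that the annotation lists as non-coding. Another of 12.8 kb overlapped the end of that locus and lay mostly beyond it. A domain of 15.8 kb ended 1587 bp before Mchr1, a receptor for melanin-concentrating hormone, and one of 10.1 kb began in Prph, the intermediate filament peripherin of peripheral neurons.

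Cover of the 30 domains ran from 20.5% to 66.1% in the replicated list (median 40.3%). It ran from 15.7% to 60.8% in replicate 1 (median 39.4%) and from 27.5% to 61.6% in replicate 2 (median 39.8%). Replicate 2 covered more than replicate 1 in 20 of the 30. The widest gap was in a domain of 10.4 kb inside Oxr1, an oxidation resistance gene, with 15.7% in replicate 1 and 41.6% in replicate 2.

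**Figure D2:**
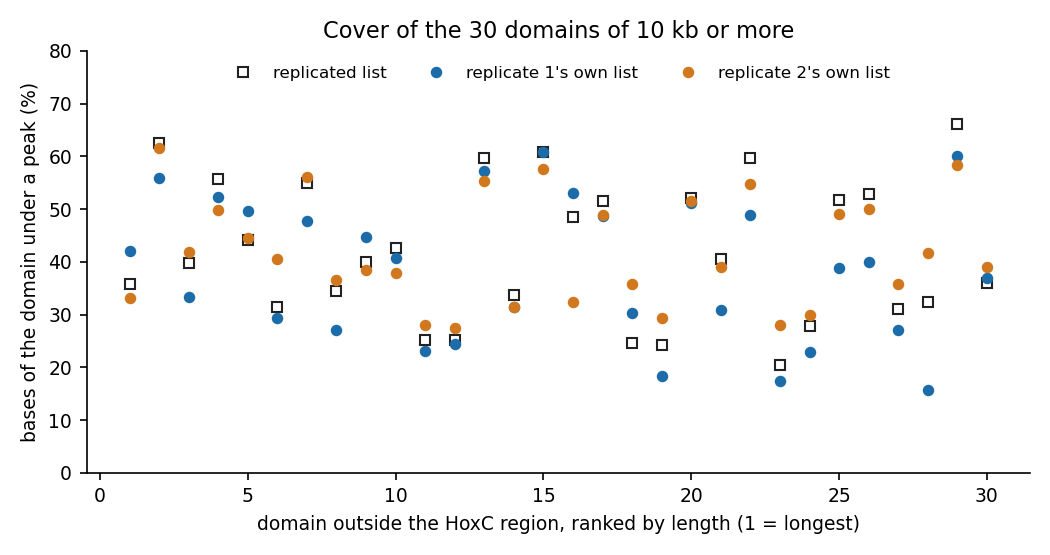
Share of bases under a peak (%, y axis) in the 30 domains of 10 kb or more outside the HoxC region, ranked by length on the x axis, in the replicated list (squares) and each replicate's own list (points). Every domain had peaks in all 3 lists, and the lists spread most at rank 28, the Oxr1 domain.

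Of 774 protein-coding genes outside the HoxC region, 41 (5.30%) were marked, that is, a replicated peak overlapped the 1 kb either side of the outermost start, against 3.003% of the genes of the genome. Replicate 1's own list marked 58 (7.49%, against 4.46% in the genome) and that of replicate 2 marked 73 (9.43%, against 6.28%). Both own lists shared 49 genes, 84.5% of those of replicate 1 and 67.1% of those of replicate 2. Of the 41, 37 were marked in both own lists, Faim2 only in replicate 1, and Pdgfb, Olfr283 and Acvrl1 only in replicate 2. The replicated list was made from the other lists, so this sharing is partly built in.

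The dense stretches differed in marked genes. Between 97 and 100 Mb 20 of 78 genes were marked (25.6%), against 21 of 696 in the rest of the chromosome outside the HoxC region (3.02%). In the bin at 36 Mb 1 of 9 gene starts was marked, and in that at 58 Mb 0 of 15. The stretches were chosen with the peaks known, so the contrast is a description. Only 118 of the 774 genes had any covered base within 5 kb of the start, and the median over all 774 was 0. Among the 41 marked genes the median was 1422 bp (quartiles 579 and 3692). The start base itself was covered in 9, and 23 had more covered bases upstream than downstream.

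Of the nuclear receptor genes, Rarg had the most covered bases near its start of all 774 genes, while Vdr came after Olfr282 and Rapgef3. Rarg (chr15:102234938-102257517, reverse strand) had 7672 bases under replicated peaks within 5 kb of its start, 7318 in replicate 1 and 7178 in replicate 2. Its start base was free of peaks in all 3 lists, which left a gap of 122 bp to the nearest replicated peak. Vdr (chr15:97854425-97910630, reverse strand) had 4848, with 5182 in replicate 1 and 4775 in replicate 2, and its outermost start was covered in all 3. Most of that cover was upstream, with 4225 bases before the start and 623 after it, and only 1.38% of the gene body was covered, against 33.7% of the body of Rarg. The other nuclear receptor genes of the chromosome, Nr4a1 and Ppara, were not marked. In this short list 2 of 4 genes were thus marked, against 5.30% of all genes outside the HoxC region. Replicate 1 alone had a peak at Ppara, a regulator of fatty acid oxidation, with 280 bases within 5 kb.

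Neighbours of Vdr had covered bases too. Rapgef3, the cAMP-activated exchange factor EPAC1, had 5857 bases within 5 kb (6136 in replicate 1 and 5390 in replicate 2), split between 2358 upstream and 3499 downstream with the nearest replicated peak 561 bp from the start base. Endou, a poly(U)-specific endoribonuclease, had 4050 (3533 and 4345 in replicates 1 and 2), all of it downstream, and 33.0% of its body was covered. Peaks covered 10.01% of the 328 kb from Endou to Senp1 (10.19% in replicate 1 and 10.98% in replicate 2). Col2a1 lies in this interval and was not marked. It had 1731 bases within 5 kb of its start and none in its body, with 1341 in replicate 1 and 1885 in replicate 2.

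Odorant receptor genes formed the list with the highest marked share. Of 9 such genes, which are expressed in the sensory neurons of the nose, 7 were marked by replicated peaks (against 5.30% of all genes). Olfr283 was among the 7 through only 3 bases at the edge of the window, and replicate 1's own list did not mark it. Replicate 1 marked 7 of the 9 genes and replicate 2 marked 8. All 9 had covered bases within 5 kb, against 118 of the 774 genes outside the HoxC region. Olfr282 (chr15:98431225-98438638, forward strand) led with 6052 bases (5561 in replicate 1 and 5310 in replicate 2), most of them upstream. Olfr288 followed with 3692 (4316 and 3028 in replicates 1 and 2), and the list's median was 1764. Peaks covered 35.8% of the body of Olfr279 and 21.9% of those of Olfr285 and Olfr286, neither of which was marked at its outermost start by a replicated peak. Across the 317 kb from the first to the last of these genes 14.98% of bases were covered, 16.9% in replicate 1 and 17.7% in replicate 2. Odorant receptors resemble each other in sequence, and how reads that fit several places were handled is not stated. The predicted gene Gm44579 overlaps Olfr286, Olfr287 and Olfr288, so its covered bases are partly theirs. Its start lies beside that of Olfr287. Both were marked through the same peaks, with 776 covered bases within 1 kb, so the 41 marked genes are not all separate places.

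Genes beside the receptors took part in the same stretch. Ccdc184 and Asb8, which carries a SOCS box that recruits a ubiquitin ligase, have starts close together and had 4769 and 3902 covered bases. The values were 3942 and 3128 in replicate 1 and 4853 and 4353 in replicate 2. OR5BS1P, which bears an odorant receptor name and is listed as protein-coding, had 3999 bases in replicate 1 and 2276 in replicate 2 and was marked in replicate 1 alone.

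**Figure D3:**
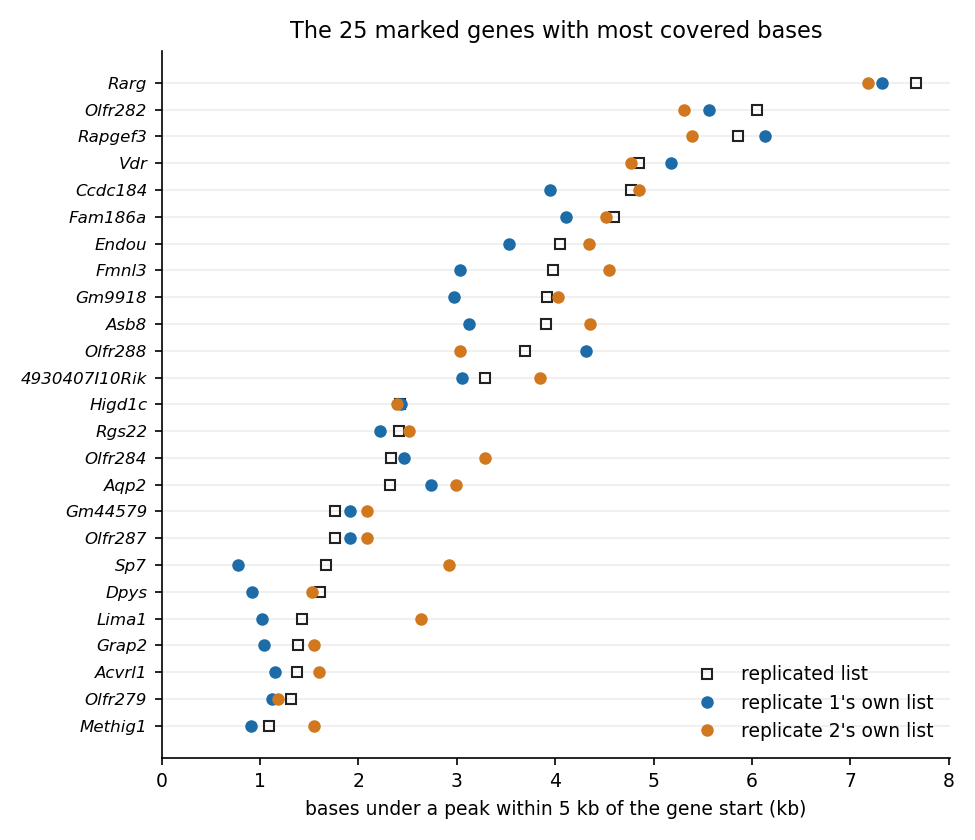
Bases under a peak within 5 kb of the gene start (kb, x axis) in the 25 marked genes with the most such bases, in the replicated list (squares) and in each replicate's own list (points). Rarg lies highest in all 3 lists, and the replicates lie far apart at Sp7 (771 bases in replicate 1 and 2916 in replicate 2) and Lima1 (1014 and 2635).

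Between Fmnl3 and Larp4, 653 kb with 17 gene starts, 11.4% of bases were covered (11.2% in replicate 1 and 14.0% in replicate 2). Fmnl3 itself had 3974 bases within 5 kb of its start (3028 and 4545 in replicates 1 and 2) and 34.4% of its body covered. The nearest replicated peak lay 837 bp from its start base. Fam186a had 4600 (4110 and 4516 in replicates 1 and 2), with peaks across its start in all 3 lists. Of the 3 aquaporin genes, Aqp2, the vasopressin-regulated water channel of the kidney collecting duct, had 2320 bases (2737 and 2988) and Aqp6, an intracellular channel of kidney cells, 1047 (1284 and 1621). Aqp5, the water channel of salivary and sweat glands between them, had 0, with 140 in replicate 1 and 625 in replicate 2. Faim2, an inhibitor of Fas-induced death in neurons, had 579 bases (796 in replicate 1 and 639 in replicate 2).

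Of 13 genes of signalling ligands and receptors found in the annotation from a list of 15, 3 were marked, against 5.30% of all genes outside the HoxC region. Dhh had 484 bases (192 in replicate 1 and 470 in replicate 2), Acvrl1, a TGF-beta family receptor of endothelium, 1375 (1150 and 1600), and the growth factor gene Pdgfb 213. Replicate 1 had no peak within 5 kb of the Pdgfb start, while replicate 2 had 258 bases there. Acvrl1 was marked through 6 bases at the edge of the window. Pdgfb and Acvrl1 were marked in replicate 2 alone, and Dhh in both own lists.

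Among 12 developmental transcription factor genes only Sp7, the osteoblast factor osterix, was marked, with 1672 bases (771 in replicate 1 and 2916 in replicate 2). Sox10, the neural crest factor, was marked in replicate 2 alone, with 2599 bases against 607 in replicate 1. The neuronal list of 30 genes had 2 marked members, Faim2 and Sstr3, a somatostatin receptor, which had 359 bases (427 and 981 in replicates 1 and 2). Over all 774 genes 41 were marked, so neither list stood far above the chromosome.

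**Figure D4:**
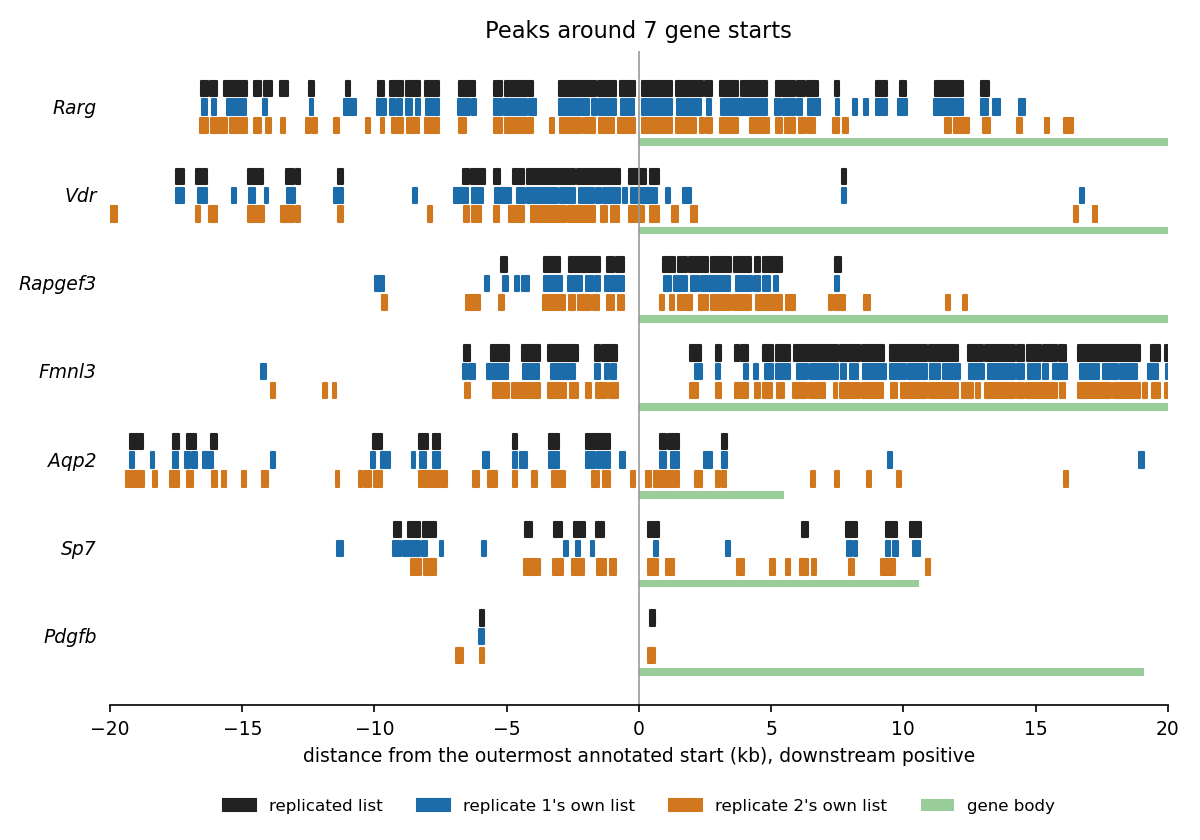
Peaks of the replicated list (black) and of replicates 1 (blue) and 2 (orange) within 20 kb either side of 7 gene starts, by distance from the outermost annotated start (kb, x axis), with the gene body in green. Peaks flank the starts of Rarg, Rapgef3 and Fmnl3 in all 3 lists, cross that of Vdr, and are sparse at Pdgfb, where replicate 1 has none near the start.

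Leukocyte genes were marked in 2 of 12 cases, against 5.30% of all genes, a share under which lists of this size hold few marked members or none. Grap2, an adaptor of T-cell receptor signalling, had 1390 bases (1038 in replicate 1 and 1544 in replicate 2), and Sla, a Src-like adaptor of lymphocytes, had 537 (843 and 1669). Of 11 cytokine and related receptor genes only Il7r, the receptor for the lymphocyte growth factor interleukin 7, was marked, with 224 bases (568 and 682 in replicates 1 and 2). Of 19 genes of the Ly6 family, small surface proteins, only Slurp2 was marked, with 836 bases (803 and 957), and its start was covered in all 3 lists. The Ly6 genes lie in 885 kb of which 0.192% was covered.

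Marked genes in none of the lists ranged from Rapgef3 with 5857 bases to Gtsf1 with 182. C9, a complement protein made in liver, had 495 bases within 5 kb (645 in replicate 1 and 968 in replicate 2), Dpys, an enzyme of pyrimidine breakdown, 1612 (917 and 1523), and Miox, the kidney enzyme that breaks down myo-inositol, 425 (286 and 916). Gtsf1, a factor of the germline piRNA pathway, was marked through 28 bases at the edge of the window (266 bases within 5 kb in replicate 1 and 443 in replicate 2). More cover was seen at Higd1c, of a family of mitochondrial proteins, with 2422 bases (2435 and 2389) and a peak across its start in the replicated list and in replicate 1, and at the uncharacterised gene 4930407I10Rik with 3287 (3052 and 3850). Of the genes marked in a single replicate by the strongest peaks, C1qtnf6 had 470 bases in replicate 1 and 0 in replicate 2, and Tcf20 had 291 and 235.

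Other gene families had no marked member, which at a marked share of 5.30% over all genes is not far from the background for lists of their size. None of 26 keratin genes was marked by a replicated peak, and 0.429% of their 685 kb was covered (0.865% in replicate 1 and 1.62% in replicate 2). Krt18 had 1152 bases within 5 kb, Krt77 279 and Krt8 188; replicate 1 marked Krt77, and replicate 2 marked Krt18, Krt8 and Krt2. The cytochrome P450 list (10 genes) had Cyp2d22 at 1503 bases, Cyp2d9 at 175 and Cyp2d26 at 170, and only Cyp2d22 was marked in the replicates' own lists, in both. The collagen and matrix list (9 genes) had covered bases at Col2a1 and at Adamts20, a protease of pigment cell migration, which had 162. The 12 apolipoprotein L genes, the 4 gasdermin C genes and the 3 imprinted genes found had no covered base within 5 kb in the replicated list. Over all 774 genes outside the HoxC region 118 had such a base.

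The erythroid, housekeeping and chromatin regulator lists also had no marked gene, at 5.30% over all genes. Over all 774 genes outside the HoxC region 118 had a covered base within 5 kb of the start, so short lists hold few such genes or none. Of 7 erythroid and haem genes 0 had such a base, among them Nfe2, a globin gene activator, and Myc. The nearest replicated peak lay 110861 bp from the Nfe2 start and 23540 bp from the Myc start. Slc48a1, a haem transporter that lies between Rapgef3 and Vdr, was marked in both own lists (472 bases in replicate 1 and 701 in replicate 2) but had no replicated peak within 5 kb. Replicate 2 alone marked Tmprss6, a liver protease of iron regulation, with 598 bases. Of 16 housekeeping genes only Polr2k, an RNA polymerase subunit, had covered bases (214), and of 11 Polycomb and chromatin regulator genes only Cbx6 did (175), neither within 1 kb. Across the genome 1 of 10 erythroid marker genes was marked, Slc4a1 on chromosome 11, against 3.003% of all protein-coding genes, and Gata1, Klf1 and the globin genes Hba-a1 and Hbb-bs had no covered base within 5 kb. Peaks do not measure expression, and the expression of these genes was not analysed here.

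Cover of gene bodies picked out many of the same genes as cover of starts. At least 10% of the body was covered in 31 genes (4.01%, against 2.03% of the genes of the genome), and 23 of them were marked. The highest shares among genes of 10 kb or more were in Olfr279 (35.8%), Fmnl3 (34.4%), Rarg (33.7%) and Endou (33.0%). Another 12 of the 774 genes outside the HoxC region had a replicated peak only at an internal start. No such share was computed for the genome, and genes with more annotated starts have more places to be marked. Oxr1 has 11 annotated starts, of which 1 was marked. Asic1, an acid-sensing channel of neurons, had 2204 bases within 5 kb of a start 21865 bp inside the gene (2161 in replicate 1 and 3273 in replicate 2), and Oxr1 had 1119 at a start 263122 bp inside it (999 and 854).

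Of 365 long non-coding RNA genes outside the HoxC region 19 were marked (5.21%, against 2.83% in the genome). Rapgef3os2, antisense to Rapgef3, had the most bases within 5 kb of its start, 6245 (5774 in replicate 1 and 6129 in replicate 2), and Rapgef3os1 had 2615 (2256 and 3945); both share their peaks with Rapgef3. Gm46515, between the poly(A)-binding protein gene Pabpc1 and the 14-3-3 gene Ywhaz, had 4195 (4251 and 3642). Gm49313 had 2522 (3416 and 2260). Gm34093, in the interval between Rnf19a and Ankrd46, had 2502 (2065 and 2266) but no replicated peak within 1 kb.

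The marked genes had starts poorer in CpG than the unmarked ones. In the 500 bp either side of the start, the observed number of CpG over that expected from base composition had a median of 0.315 in marked genes (quartiles 0.169 and 0.468) and 0.645 in unmarked genes (0.309 and 0.782). A ratio of 0.6 or more was found in 4 of the 41 marked genes (9.76%) and in 405 of 733 unmarked genes (55.3%). GC content had medians of 50.5% in marked and 57.4% in unmarked genes. The 4 were Cdc42ep1, an effector of the small GTPase CDC42 (0.792), Fmnl3 (0.784), Lima1 (0.689) and Rgs22 (0.605), and in each the start base itself was free of replicated peaks. No test was made, since neighbouring genes share peaks and stretches of sequence.

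**Figure D5:**
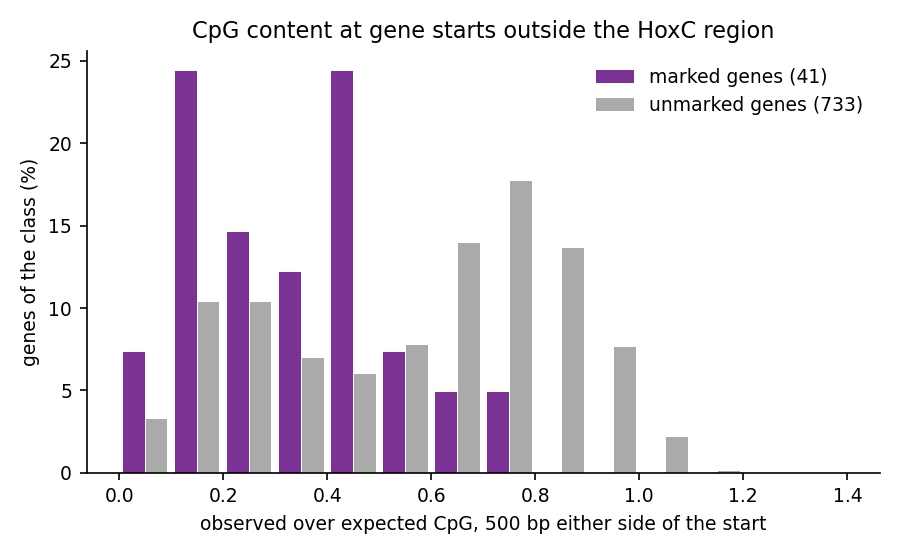
Observed over expected CpG in the 500 bp either side of the gene start (x axis) for the 41 marked and the 733 unmarked genes outside the HoxC region, as the share of each class in equal steps (%, y axis). No marked gene lies above 0.792, while many unmarked genes do.

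The peaks as a whole were CpG-poor, like most of the chromosome. Their median GC content was 43.3%, against 41.5% in windows of the median peak width over the chromosome, and their median CpG ratio 0.167, against 0.153. A GC content of at least 55% was found in 2.20% of peaks, against 4.23% of windows. At the summits outside the HoxC region, 0.183% of the 201-base windows held at least 10 CpG, against 1.10% of all windows of the chromosome, and 22.4% held none, against 29.5%. CpG-rich and CpG-free windows were thus both less common at summits. Repeat-masked sequence made up 19.5% of covered bases, against 32.6% of the chromosome. Whether base composition or repeats affected how reads mapped or peaks were called was not tested.

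Most covered bases lay outside promoters and exons. Promoters, taken as 1 kb either side of a start, held 3.60% of them, against 2.34% of the chromosome, exons 2.88% against 3.004%, introns 30.3% against 34.8% and intergenic sequence 63.2% against 59.9%. Without the HoxC region the intergenic share was 59.1% and the intronic share 33.8%, so the higher intergenic share did not hold outside it. The shares of intergenic bases were 63.1% in replicate 1 and 62.7% in replicate 2. The median peak lay 23772 bp from the nearest start (quartiles 8492 and 64562), 2.28% of peaks lay within 1 kb of one and 258 peaks (10.9%) more than 100 kb from any.

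Peak by peak, agreement was looser than bin by bin. Of the 2367 replicated peaks 1791 (75.7%) overlapped a peak of both own lists, against 72.4% in the genome. Another 185 overlapped a peak of replicate 1 only, 380 of replicate 2 only and 11 of neither. The share with both was 61.7% among lone peaks and 82.0% in domains of at least 5 peaks, and 95.7% among peaks with a −log10 q of 2 or more and 72.0% among the rest. Lone and weak peaks thus overlapped both replicates less often than clustered and strong ones. They were also narrower, and an overlap needed only 1 bp. The median width was 232 bp in lone peaks and 308 bp in those domains. It was 469 bp at a −log10 q of 2 or more and 265 bp in the rest. How much of the difference goes with width was not tested, and the replicated list was itself drawn from these data.

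In the replicates' own lists, 51.0% of the chromosome's peaks of replicate 1 overlapped a peak of replicate 2 (44.9% in the genome), and 34.6% of those of replicate 2 overlapped one of replicate 1 (29.8% in the genome). Of the strongest 10% of replicate 1's peaks 85.4% had a partner, and of the weakest 10% 33.0%. The same shares were 71.9% and 22.0% in replicate 2. The bases covered in both came to 430 kb, 20.7% of the bases covered in either, against 15.8% in the genome. Of the 3792 pooled peaks on the chromosome the authors kept 62.4% as replicated, against 54.9% in the genome.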

How the data were processed

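H3K27me3 chromatin immunoprecipitation and sequencing of 2 replicates of MEL cells was analysed from deposited peak lists. Per the deposited text descriptions, the replicates were called against 1 shared control, and the replicated list came from these and the pooled calls. The authors deposited a signal score of undefined meaning, not reported here, and a −log10 p-value and −log10 q-value per peak. The aligner, the peak caller and the rule for keeping peaks: not given in the sources used here. Nothing says that the replicates came from separate cultures, so their spread may be technical. Depth is unknown. An older mm9 list (2270 peaks on chromosome 15, 5.58% of its peaks) was not compared by position.

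Covered bases are unions of peaks, and overlaps needed 1 bp. Peaks within 3 kb were joined into domains. Gene starts are the outermost 5' ends of GENCODE genes, the longest per symbol (21911 protein-coding). The sequence of 1 peak is not reported here. CpG was searched as CG, which reads the same on both strands. Named genes are the 15 with most covered bases within 5 kb, those in the 12 longest domains, marked members of the 19 gene lists and up to 3 others of lists with none, the 10 genes of at least 10 kb with most of the body covered, 5 long non-coding RNA genes and 5 genes marked in 1 replicate. Further genes, such as Mchr1, Prph, Sox10, Ppara, Slc48a1 and Tmprss6, were chosen after their values were seen. The members, lists and stretches were chosen with earlier results of these data known.

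Alternatives were each replicate's own list, the pooled list, a −log10 q of at least 2, shifted bins, other joining distances, other promoter and gene-body rules and 50% overlap. Code was tested on simulated peaks (Python 3.11.15, NumPy 2.4.6, SciPy 1.17.1, matplotlib 3.10.9).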

Additional observations from a re-analysis of the deposited data

How the results depend on the processing

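With each replicate's own list in place of the replicated list (leaving out the other replicate), the peaks on chromosome 15 numbered 4182 to 6132, the covered share 0.993% to 1.42%, the share of the top 10 bins 48.9% to 56.3%, the domains of 10 kb outside the HoxC region 58 to 111, the marked genes 58 to 73 and the covered gene bodies 35 to 45. The pooled list gave 3792 peaks, 56.6% in the top 10 bins and 59 long domains. A −log10 q of at least 2 left 369 peaks, 0.224% covered, 84.0% in the top 10 bins, 4 long domains, 11 marked genes, 10 covered gene bodies and 95.7% of peaks overlapping both replicates. Joining within 1 kb gave 7 long domains and within 10 kb 109. Promoters of 2.5 kb either side gave 65 marked genes, and 500 covered bases in place of 1 gave 17. Gene bodies covered to 5% numbered 48 and to 20% 16. With 50% of a peak covered, 59.2% overlapped both replicates. Of 36 alternative values 11 stayed close, among them bins shifted by 0.5 Mb (62.3% in the top 10), the bins without the HoxC region (57.9%) and any coding transcript start (53 marked genes). Numbers of peaks, long domains and marked genes therefore depend on the list and threshold used, and fewer peaks enter at the higher −log10 q by construction; the cause of the other differences was not tested. No paired analysis was possible because there is 1 group and no test. Read depth is unknown, so no counting interval could be given.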
